A study of Mus musculus with 6 samples.

Results

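Interferon-induced genes, the antiviral and antimicrobial genes that cells switch on when an interferon reaches them, are described here in mouse fat with and without a Prmt5 knockout. They were chosen by name and numbered 68 of the 14291 genes analysed. The rule took the Ifi genes with a number, the Ifit (with Ifitm), Oas, Gbp, Isg and Irgm genes, the interferon regulatory factors of the Irf series, Stat2, Mx1 and Mx2, and a set of single names: Iigp1, Igtp, Tgtp1, Rsad2, Usp18, Zbp1, Bst2, Rtp4, Xaf1, Ddx58 and Cmpk2. All 68 were tested, since the expression filter removed 0 genes. A name is not proof of induction: Ifitm5, a gene of bone-forming cells, is a member by name only. From textbook knowledge, 31 members were classed as targets mainly of type I interferon, 20 as targets mainly of type II interferon and 7 as targets of both, and 10 were not assigned.

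PolyA-selected RNA of white fat, labelled as the epididymal depot, was sequenced from 3 Prmt5 knockout libraries (written Prmt5AKO in the labels) and 3 wild-type libraries (Prmt5flox/flox, that is, with floxed alleles that were left intact). The protein Prmt5 is the main enzyme for symmetric dimethylation of arginine, on histones and on proteins of the spliceosome among others. The comparison asks which genes differ between fat with and without the deletion. The Cre driver, the cell type of the deletion and the age of the mice are not stated in the labels, nor is it said that each library came from a separate animal, so the p-values here speak only of the spread from library to library.

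The targeted gene lay below all wild-type libraries in every knockout library. Prmt5 stood at 14.8, 22.4 and 28.5 CPM (counts scaled to library size) in knockout replicates 1 to 3, against 37.5, 59.9 and 40.8 CPM in wild-type replicates 1 to 3. Its log2 fold change of -1.07 (SE 0.34) had an adjusted p of 0.467 with genotype as the only term (edgeR quasi-likelihood test, Benjamini-Hochberg over all genes), and one of -1.10 (SE 0.24) had an adjusted p of 0.0913 with a batch term that sets replicate 1 of each genotype apart from replicates 2 and 3. That grouping is the one under which the authors' deposited p-values are matched. Both fits are given for the whole set, for type I and type II targets and for some families and genes. A value with no fit named is from the fit with genotype only. Libraries held 17489530 to 24454163 counts in knockout and 20746401 to 26403882 in wild type. Principal component 1 carried 61.8% of the variance without dividing the genotypes. The 5 adipocyte markers summed to 19768 to 26897 CPM in knockout and 22874 to 29774 CPM in wild type. Xist, which is transcribed in female cells, stood at 1044, 45.6 and 47.2 CPM in knockout and at 958.1, 106.1 and 509.7 CPM in wild type, which goes against the label of a depot found only in males. Replicate 1 had the highest Xist of each genotype, and values within replicate 1 and in replicates 2 and 3 alone are given for type I and type II targets, for the families and for some members. Xist was still lower in knockout in replicates 2 and 3 alone (log2 fold change -2.76) and with the batch term (-1.84). Neither setting therefore balances Xist between the genotypes. Xist has 17918 exonic bases. Under loess offsets for exonic length and GC content its log2 fold change was -0.32, and -0.69 with the batch term added. The Y-linked genes Ddx3y, Eif2s3y, Kdm5d and Uty were not among the genes analysed, and the sex behind each library was not tested.

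Type I interferons (alpha and beta) bind the receptor of Ifnar1 and Ifnar2, whose kinases Jak1 and Tyk2 phosphorylate STAT factors. Stat2 and Irf9 belong to the complex ISGF3, which binds the interferon-stimulated response element (ISRE) before genes such as Isg15, Ifit1 and the Oas genes. Type II interferon (gamma), made by T and natural killer cells, binds Ifngr1 and Ifngr2, and signals through Jak1 and Jak2 to gamma-activated sites (GAS) before genes such as Irf1, Irf8 and the guanylate-binding proteins. In fat the responding cells include adipocytes, macrophages, endothelium and lymphocytes, and in whole tissue fewer cells of a type and less RNA per cell cannot be told apart.

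The promoters of some members are shown for the letters that these factors are known to bind. Of the 68 members, 49 matched a RefSeq promoter window of build GRCm38.p6, which runs from 250 bases before to 50 bases after the gene's start (position 0). The letters searched on both strands were of 2 kinds: the ISRE letters GAAANNGAAA, and the GAS letters TTCNNNGAA, which are their own reverse complement. The ISRE letters were in the windows of 27 of 49 members (55.1%), against 1079 of all 27025 genes (3.99%). The GAS letters were in 15 of 49 (30.6%), against 2582 of 27025 (9.55%). Among type I targets 13 of 23 (56.5%) held the ISRE letters and 5 (21.7%) the GAS letters. Among type II targets 9 of 13 (69.2%) held the ISRE letters and 7 (53.8%) the GAS letters. A match is a run of letters, not a bound site.

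Matches stand in capitals in the sequences that follow, read 5′ to 3′ on the gene's own strand. Isg15 and Ifit1 stand for type I targets: Isg15 carries a run of 3 overlapping ISRE matches, and Ifit1 has 2 on the opposite strand. Irf8 and Gbp2 were picked from the type II targets by their values, since their knockout libraries all lay above wild type. That held for 2 of 20 type II targets, beside 8.32% of all genes, so these 2 do not stand for the class. Irf8 holds 2 GAS matches, and Gbp2 holds 1 ISRE match on the opposite strand.
Isg15, GRCm38.p6, chr4:156200769-156201068, minus strand: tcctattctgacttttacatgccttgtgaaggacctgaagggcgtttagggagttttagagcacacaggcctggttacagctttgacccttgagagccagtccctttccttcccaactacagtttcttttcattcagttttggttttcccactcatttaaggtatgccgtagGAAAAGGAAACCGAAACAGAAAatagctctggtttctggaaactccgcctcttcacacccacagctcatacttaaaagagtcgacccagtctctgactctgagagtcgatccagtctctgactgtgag
Ifit1, GRCm38.p6, chr19:34640639-34640938, plus strand: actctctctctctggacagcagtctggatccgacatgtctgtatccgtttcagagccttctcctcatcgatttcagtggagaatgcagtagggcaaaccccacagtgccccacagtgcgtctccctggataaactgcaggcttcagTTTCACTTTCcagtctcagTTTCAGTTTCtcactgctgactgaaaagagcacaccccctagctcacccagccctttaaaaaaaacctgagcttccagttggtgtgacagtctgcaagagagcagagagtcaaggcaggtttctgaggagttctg
Irf8, GRCm38.p6, chr8:120736108-120736407, plus strand: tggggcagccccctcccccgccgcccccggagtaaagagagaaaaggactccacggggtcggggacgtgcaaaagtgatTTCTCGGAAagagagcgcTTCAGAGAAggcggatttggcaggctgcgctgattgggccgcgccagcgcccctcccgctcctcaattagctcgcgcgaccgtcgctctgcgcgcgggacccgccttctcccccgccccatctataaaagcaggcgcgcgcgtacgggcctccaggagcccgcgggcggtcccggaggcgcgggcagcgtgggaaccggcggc
Gbp2, GRCm38.p6, chr3:142620413-142620712, plus strand: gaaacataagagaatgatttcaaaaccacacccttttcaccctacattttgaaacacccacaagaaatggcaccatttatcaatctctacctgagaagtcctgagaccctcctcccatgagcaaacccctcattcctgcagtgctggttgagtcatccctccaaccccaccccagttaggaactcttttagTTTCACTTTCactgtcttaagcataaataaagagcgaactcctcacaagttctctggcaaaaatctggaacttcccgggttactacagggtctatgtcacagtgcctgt

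In 3 immunity-related GTPase genes a GAS match comes just before an ISRE match, and the last 170 bases of each window are shown for that spacing. The GAS match begins at position -45 and the ISRE match at -34 from the start of Igtp, at -75 and -64 in Irgm2, and at -88 and -77 in Tgtp1.
Igtp, GRCm38.p6, chr11:58199436-58199605, plus strand: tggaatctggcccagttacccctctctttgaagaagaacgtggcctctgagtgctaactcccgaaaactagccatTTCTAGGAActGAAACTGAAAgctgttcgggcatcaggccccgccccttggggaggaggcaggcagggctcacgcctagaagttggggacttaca
Irgm2, GRCm38.p6, chr11:58214857-58215026, plus strand: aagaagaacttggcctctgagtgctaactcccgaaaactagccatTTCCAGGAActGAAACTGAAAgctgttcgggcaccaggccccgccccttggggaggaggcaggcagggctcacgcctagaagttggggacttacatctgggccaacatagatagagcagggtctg
Tgtp1, GRCm38.p6, chr11:48992197-48992366, minus strand: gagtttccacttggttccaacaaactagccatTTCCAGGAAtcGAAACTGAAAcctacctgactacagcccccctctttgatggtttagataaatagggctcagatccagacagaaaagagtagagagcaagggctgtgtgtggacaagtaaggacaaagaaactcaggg

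Measured over the whole set, the interferon-induced genes did not move in a common direction in the knockout, and a single member, Ifi27l2a, passed the test in either fit. With genotype only, 0 members passed an adjusted p under 0.05 in either direction (edgeR quasi-likelihood test, Benjamini-Hochberg over 14291 genes), where 0% of all genes were called higher and 0% lower. DESeq2 called 1 member and limma-voom 0. At an unadjusted p under 0.05, 4 members were higher in knockout (Ifi27l2a, Irf8, Zbp1 and Ifi30) against 5.26% of all genes, and 2 were lower (Ifi204 and Ifi205) against 3.37% of all genes. With the batch term 1 member was called higher and 0 lower, where 0.385% of all genes were called higher and 0.119% lower. At an unadjusted p under 0.05 that fit gave 4 members higher (12.1% of all genes) and 8 lower (12.4% of all genes). The 8 were Ifi204, Ifit2, Rsad2, Ifi203, Gbp7, Ifi205, Cmpk2 and Gbp9.

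Signs were mixed in the same way. With genotype only, 36 of 68 members had a log2 fold change above 0 (49% of all genes) and 32 one below 0 (51% of all genes), with a median of 0.09 beside -0.02 over all genes. With the batch term 35 lay above 0 (47.6% of all genes) and 33 below 0 (52.4% of all genes), with a median of 0.04 beside -0.05. The 3 knockout libraries lay wholly above the 3 wild-type libraries for 5 members (8.32% of all genes), namely Ifi27l2a, Irf8, Gbp2, Oas1c and Usp18. They lay wholly below for another 5 (6.2% of all genes), among them Ifi204, Ifi205, Irf2 and Irf4. These counts were near the shares of all genes, but for the 4 members with an unadjusted p under 0.05 and higher in knockout with the batch term, which fell short of it. Of the 68 members, 43 share at least 1 window of 50 bases with another gene's transcript, and for 19 over 10% of the windows are shared, so the counts of these 19 are uncertain. Among them are Gbp4, Gbp6, Gbp7, Gbp8, Gbp10, Gbp11, Ifi203, Ifi204, Ifit3, Ifit3b, Ifitm2, Ifitm5, Igtp, Oas1a, Oas1c, Oas1g, Rtp4 and Tgtp1. The heat map by family shows each library.

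**Figure D1:**
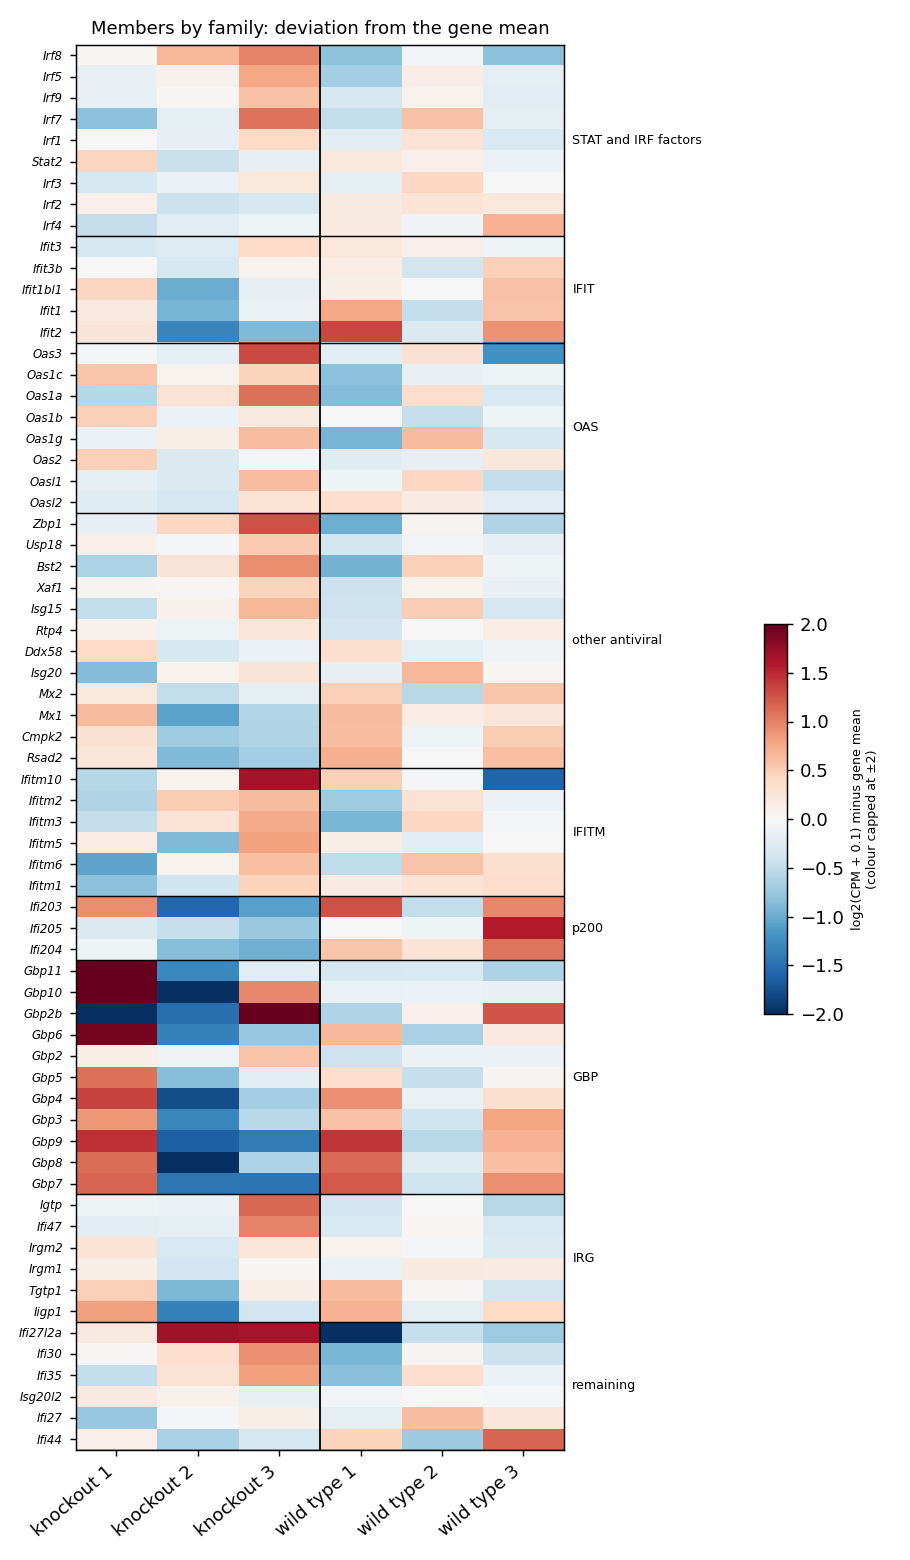
Deviation of each member's log2(CPM + 0.1) from its mean over the 6 libraries, with 66 members in rows by family and knockout replicates 1 to 3 left of wild-type replicates 1 to 3. Red is above and blue below the gene's mean, and the colour is capped at 2. Ifi27l2a is blue in all 3 wild-type libraries, while most guanylate-binding protein genes are red in knockout replicate 1 and blue in knockout replicate 2.

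Type I and type II targets were then set side by side. Of 31 type I targets, 17 had a log2 fold change above 0 and the median was 0.13 (0.10 with the batch term). Of 20 type II targets, 12 lay above 0 and the median was 0.20 (0.10 with the batch term). The 7 targets of both types had a median of -0.43, and the 10 members not assigned one of -0.18. No test was run over these lists, and the medians of type I and type II targets were of similar size beside the range of single members.

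Per library, type II targets spread more widely than type I targets among the knockout samples. Without Ifi27l2a, the type I targets had a mean log2 CPM of 3.42, 3.15 and 3.69 in knockout replicates 1 to 3 and of 3.36, 3.47 and 3.46 in wild type. Type II targets had a mean log2 CPM of 4.49, 2.90 and 3.97 in knockout and of 4.0, 3.68 and 3.90 in wild type. The standard deviation of the type II library means was 0.806 in knockout and 0.164 in wild type. In both classes the knockout libraries lay on both sides of wild type, so the genotypes overlapped. Knockout replicate 1 had the highest and knockout replicate 2 the lowest type II mean. Within replicate 1 the median log2 ratio of type II targets was 0.27, and in replicates 2 and 3 alone their median log2 fold change was -0.20. The same values for type I targets were 0.18 and 0.06.

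**Figure D2:**
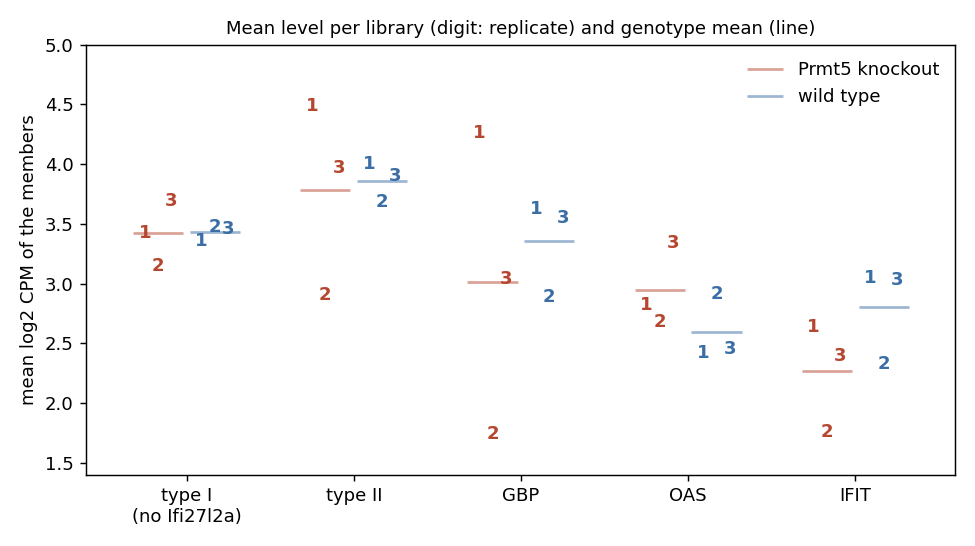
Mean log2 CPM of the members of each class or family in each library, with digits giving the replicate, knockout left of wild type, and a line at each genotype's mean. Type II targets and the guanylate-binding proteins run from knockout replicate 1 at the top to knockout replicate 2 at the bottom, past wild type on both sides.

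Ifi27l2a was the member that rose. It encodes a small membrane protein of the ISG12 family and lies at chr12:103433873-103443680 (mm10) on the minus strand. Its level was 2458, 6968 and 6801 CPM in knockout replicates 1 to 3, against 423.9, 1576 and 1317 CPM in wild type. The lowest knockout library lay above the highest wild-type library, and replicate 1 was the lowest of each genotype. The mean was 5409 ± 2557 CPM in knockout and 1106 ± 604.5 CPM in wild type (SD, n = 3 each), 4.89 times higher in knockout. Per length, the gene ranked 4, 3 and 4 among all genes of knockout replicates 1 to 3, and 126, 50 and 38 among those of wild type. It took 0.288%, 0.625% and 0.585% of all counts in knockout and 0.046%, 0.153% and 0.138% in wild type.

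The log2 fold change of Ifi27l2a was 2.35 (SE 0.23) with the batch term, at an adjusted p of 0.0130 (edgeR, Benjamini-Hochberg). With genotype only it was 2.29 (SE 0.63), at an adjusted p of 0.393. The log2 ratio was 2.54 within replicate 1, and the log2 fold change was 2.23 in replicates 2 and 3 alone (adjusted p = 0.0212, edgeR). Leaving out each library in turn from the batch-term fit gave 2.23 to 2.45, and the call was lost in the fit without knockout replicate 2 (2.36, adjusted p = 0.122). With genotype only, DESeq2 called it as well (2.30, adjusted p = 0.0111), and limma-voom did not. The size of the difference moved little over these fits, while the call was made in some of them and missed in others.

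The count of this gene carries an uncertainty from its neighbour. In the deposited annotation Ifi27l2a has an exon at chr12:103433873-103434291, 419 of its 883 exonic bases, that is not among its GENCODE M21 exons. That exon overlaps the first exon of Ifi27, on the plus strand, by 103 bases, which are 11.7% of the exonic length of Ifi27l2a and 9.78% of that of Ifi27. Whether reads were counted by strand was not stated in the labels or headers, so reads in the shared bases cannot be assigned to either gene with certainty.

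Ifi27, another gene of the ISG12 family, did not follow. It was left among the members not assigned, so the counts and medians of type I targets do not include it. Its level was 337.4, 552.2 and 616.7 CPM in knockout and 504, 878.2 and 676.3 CPM in wild type, and the genotypes overlapped. Its log2 fold change was -0.45 (SE 0.36; adjusted p = 0.632, edgeR), and -0.47 (SE 0.20) with the batch term (adjusted p = 0.204, edgeR). Ifi27l2a held 7.28, 12.6 and 11 times the counts of Ifi27 in knockout libraries, against 0.841, 1.79 and 1.95 times in wild-type libraries. The nearest genes at lower coordinates, the helicase Ddx24 and the deubiquitinase Otub2, had log2 fold changes of 0.63 (adjusted p = 0.605, edgeR) and 0.26 (adjusted p = 0.756, edgeR). These 2 genes were read for their position beside Ifi27l2a.

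**Figure D3:**
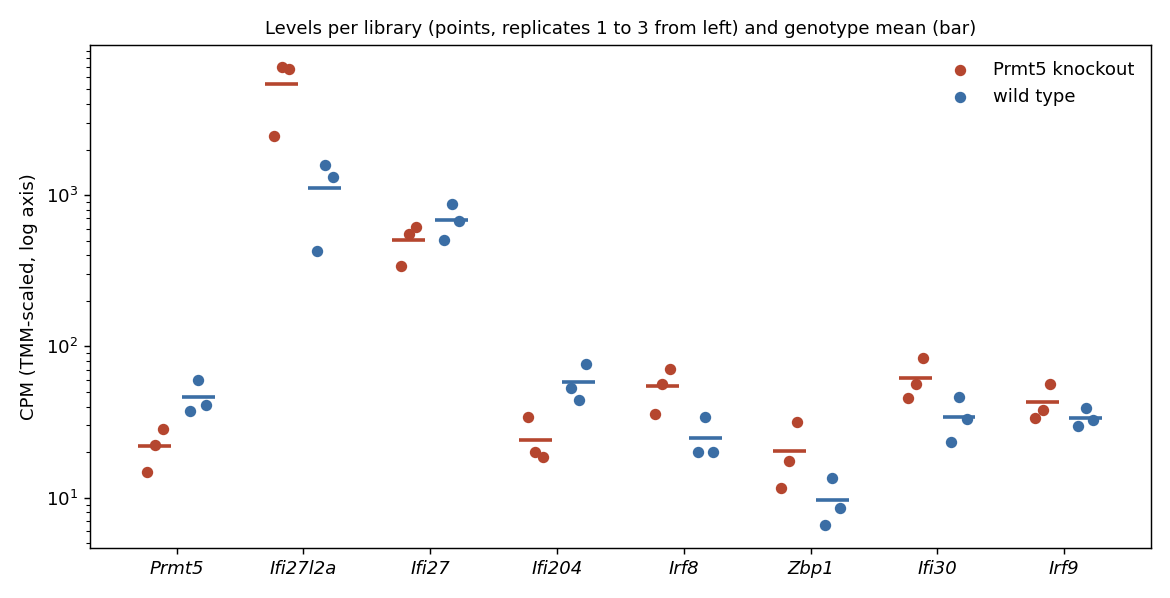
Level of Prmt5 and 7 interferon-induced genes in each library, as CPM on a log axis, with knockout (red) left of wild type (blue) and a bar at each genotype's mean. The 3 knockout points of Ifi27l2a lie above all wild-type points, those of Ifi204 lie below, and those of Ifi27 and Irf9 overlap wild type.

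The factors that carry the interferon signal went both ways. Of 11 STAT and IRF genes, 6 had a log2 fold change above 0, with a median of 0.03, and 0 were called. The knockout libraries lay wholly above wild type for 1 of the 11 (8.32% of all genes) and wholly below for 3 (6.2% of all genes). Their median was -0.07 within replicate 1 and 0.06 in replicates 2 and 3 alone. Stat2, a subunit of ISGF3, stood at 42.7, 23.2 and 28.3 CPM in knockout and 36.7, 34.2 and 29.2 CPM in wild type (log2 fold change -0.09, SE 0.30). Irf9, the DNA-binding subunit of ISGF3, stood at 33.7, 38.2 and 56.2 CPM in knockout and 29.8, 39.1 and 32.3 CPM in wild type (0.34, SE 0.29). Both overlapped between genotypes. Irf7, which amplifies type I interferon production, stood at 23.1, 36.1 and 86.9 CPM in knockout and 29.1, 61.6 and 36.2 CPM in wild type (0.20, SE 0.52), with knockout replicates 1 and 3 at the 2 ends of the range. The difference for Irf7 was -0.33 within replicate 1 and 0.30 in replicates 2 and 3, and that for Stat2 was 0.22 and -0.32. Irf1, an early target of interferon gamma, stood at 67.3, 60.5 and 89.6 CPM in knockout and 57.9, 82.7 and 54.9 CPM in wild type (0.15, SE 0.29). The adjusted p of these 4 genes lay above 0.05 in both edgeR fits.

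Irf8 had the smallest p of the factors. It directs the development of macrophages and dendritic cells and is a target of interferon gamma. Its level was 35.9, 56.2 and 70.8 CPM in knockout, against 20.2, 34.2 and 20.1 CPM in wild type. Every knockout library lay above every wild-type library, by a narrow margin between knockout replicate 1 and wild-type replicate 2. In the fit with genotype only it had a log2 fold change of 1.13 (SE 0.36; adjusted p = 0.470, edgeR), and 1.09 (SE 0.26; adjusted p = 0.104) with the batch term, so it did not pass. Irf4, a factor of lymphocytes, macrophages and fat cells, ran the other way at 10.3, 12.2 and 13.4 CPM in knockout and 16.2, 13.6 and 23.2 CPM in wild type. Its groups did not overlap, and its log2 fold change of -0.56 (SE 0.31; adjusted p = 0.593, edgeR) did not pass either.

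**Figure D4:**
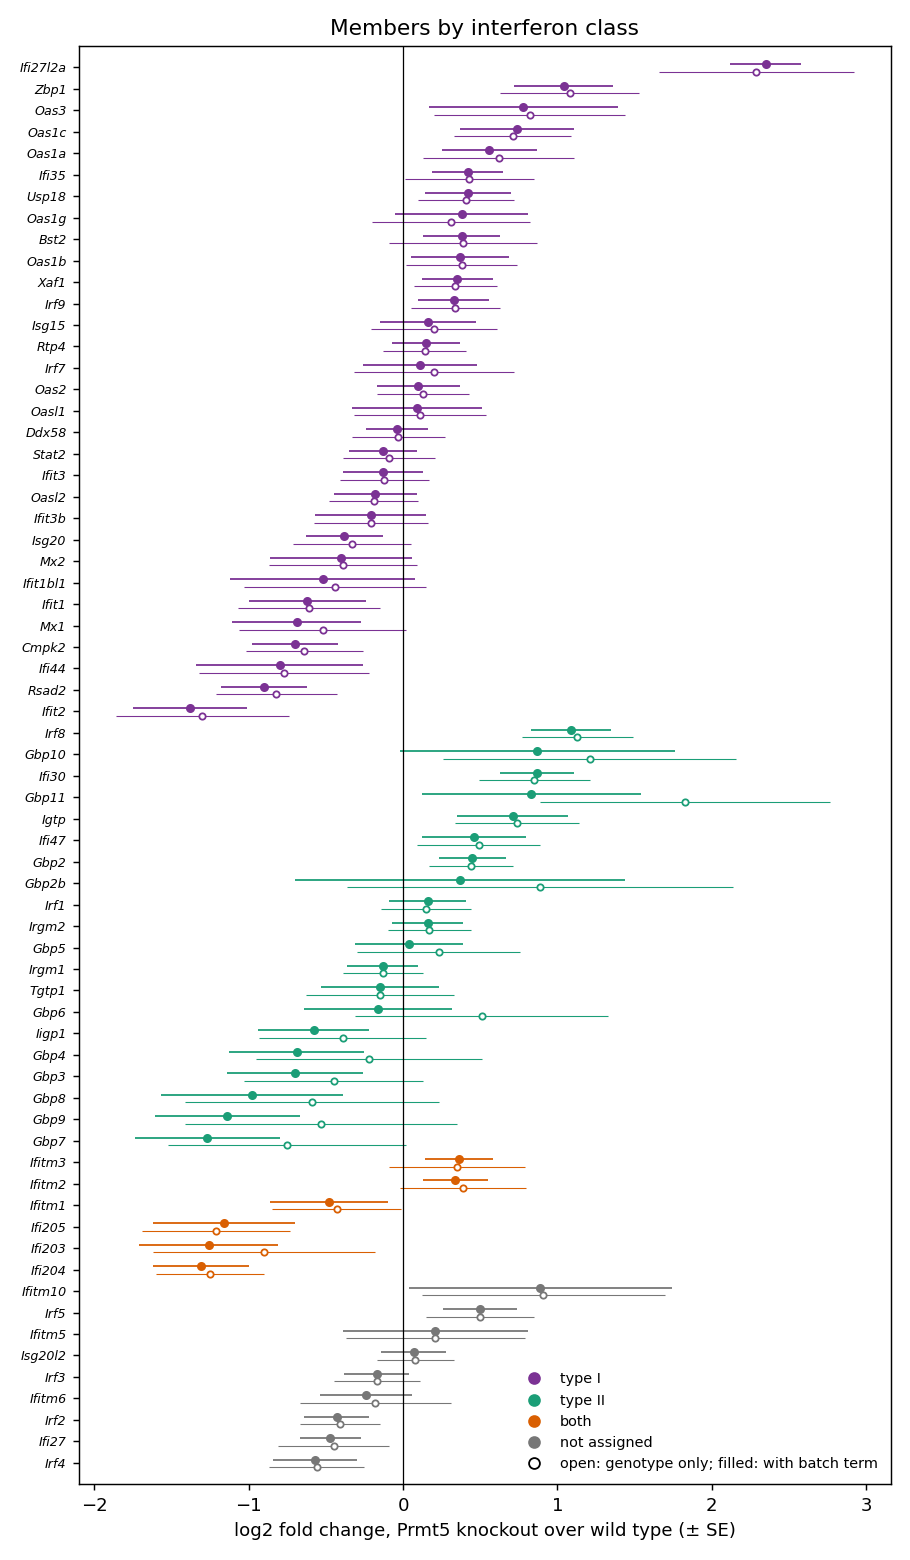
Log2 fold change of 66 members, knockout over wild type, with bars of 1 SE, ordered within type I targets, type II targets, targets of both and members not assigned. Open points are from the fit with genotype only and filled points from the fit with the batch term. Ifi27l2a at 2.35 is the called member, and each class has members on both sides of 0.

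The IFIT proteins bind viral RNA and block its translation, and their genes are standard readouts of type I interferon. All 5 had a log2 fold change below 0, with a median of -0.44 (-0.52 with the batch term), and 0 were called. The median was -0.56 within replicate 1 and -0.66 in replicates 2 and 3 alone. Under loess offsets, which take out the dependence of each library on exonic length and GC content, it was -0.09, with all 5 still below 0. Ifit2 stood at 10.8, 3.51 and 4.80 CPM in knockout and 22.7, 7.32 and 16.8 CPM in wild type. Knockout replicates 2 and 3 lay below all wild-type libraries, and knockout replicate 1 lay above wild-type replicate 2. Its log2 fold change was -1.30 (SE 0.56; adjusted p = 0.572, edgeR), and -1.38 (SE 0.37; adjusted p = 0.117) with the batch term. Under the offsets it was -0.75.

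Ifit1 stood at 8.16, 3.69 and 6.48 CPM in knockout and 12.3, 5.10 and 10.7 CPM in wild type (log2 fold change -0.61, SE 0.46, and -0.18 under the offsets). Ifit3 stood at 17.5, 18.8 and 29.5 CPM in knockout and 25.9, 24.2 and 21.2 CPM in wild type (-0.12, SE 0.29; -0.56 within replicate 1 and 0.06 in replicates 2 and 3), and 51.2% of its 50-base windows also occur in another gene, so its count is uncertain. Neither gene separated the genotypes.

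The OAS family includes synthetases that make 2′-5′ oligoadenylate, the activator of RNase L, and its genes are type I targets too. Of 8, 7 had a log2 fold change above 0, with a median of 0.34 (0.37 with the batch term), and 0 were called. The median was 0.38 within replicate 1, 0.23 in replicates 2 and 3 alone and 0.17 under the offsets. Oas1c stood at 6.5, 4.6 and 6.03 CPM in knockout and 2.44, 3.93 and 4.06 CPM in wild type, without overlap (log2 fold change 0.71, SE 0.38; adjusted p = 0.592, edgeR). Oas1a stood at 9.14, 16.6 and 29.3 CPM in knockout and 7.41, 17.5 and 10.9 CPM in wild type, with overlap (0.62, SE 0.49). Oas3 was low, at 2.00, 1.78 and 5.19 CPM in knockout and 1.73, 2.53 and 0.819 CPM in wild type (0.82, SE 0.62), and rested on knockout replicate 3. Thus the IFIT and OAS genes, both type I targets, lay on opposite sides of 0, and the difference between these families was not tested.

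The other antiviral effectors divided evenly, with 6 of 12 above 0 and a median of 0.05 (0.03 within replicate 1, -0.07 in replicates 2 and 3, and -0.15 under the offsets). Zbp1, a sensor of Z-form nucleic acid that triggers necroptosis, stood at 11.6, 17.4 and 31.8 CPM in knockout and 6.61, 13.6 and 8.56 CPM in wild type. Knockout replicates 2 and 3 lay above all wild-type libraries, and knockout replicate 1 lay below wild-type replicate 2. With genotype only it had a log2 fold change of 1.08 (SE 0.45; adjusted p = 0.572, edgeR), and 1.04 (SE 0.32; adjusted p = 0.139) with the batch term. Rsad2, which encodes viperin, an enzyme that makes chain-terminating nucleotides, stood at 16.3, 7.43 and 8.56 CPM in knockout and 22.5, 13.7 and 21.0 CPM in wild type. Knockout replicates 2 and 3 lay below wild type, and knockout replicate 1 did not. Its log2 fold change was -0.82 (SE 0.39; adjusted p = 0.581, edgeR), and -0.90 (SE 0.28; adjusted p = 0.140) with the batch term. It was -0.46 within replicate 1, -1.14 in replicates 2 and 3 and -0.43 under the offsets. Cmpk2, its chromosomal neighbour and a nucleotide kinase, had a log2 fold change of -0.64 (SE 0.38).

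Bst2, which encodes tetherin and holds budding virus at the cell surface, stood at 63.7, 119.3 and 188.9 CPM in knockout and 51.7, 137.9 and 93.4 CPM in wild type (log2 fold change 0.39, SE 0.48). Isg15, the ubiquitin-like modifier whose promoter is printed above, stood at 8.50, 12.8 and 19.1 CPM in knockout and 8.92, 16.9 and 9.42 CPM in wild type (0.20, SE 0.41). The difference for Isg15 was -0.07 within replicate 1 and -0.21 under the offsets, so its sign was not stable. Both genes overlapped between genotypes and were lowest in replicate 1 of each. Usp18, which removes Isg15 from proteins and damps the type I receptor, stood at 9.87, 9.02 and 13.3 CPM in knockout and 7.10, 8.84 and 8.19 CPM in wild type. Its groups did not overlap, and its log2 fold change was 0.41 (SE 0.31; adjusted p = 0.622, edgeR).

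The IFITM proteins sit in endosomal and plasma membranes and block viral fusion. Of 6 genes, 4 had a log2 fold change above 0, with a median of 0.28, and 0 were called. The median was -0.27 within replicate 1, 0.29 in replicates 2 and 3 alone and -0.23 under the offsets, so the direction of this family differed between these settings. Ifitm2 stood at 210.0, 455.1 and 494.1 CPM in knockout and 196.2, 391.2 and 296.7 CPM in wild type (log2 fold change 0.39, SE 0.41), and 48.5% of its windows also occur in another gene. Ifitm1 stood at 2.59, 3.51 and 6.33 CPM in knockout and 5.19, 5.61 and 5.92 CPM in wild type (-0.43, SE 0.42). Ifitm10 stood at 1.03, 1.64 and 5.19 CPM in knockout and 2.22, 1.52 and 0.447 CPM in wild type (0.91, SE 0.79), with -1.05 within replicate 1 and 1.77 in replicates 2 and 3. All 3 overlapped between genotypes.

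The p200 genes were the family with the lowest median with genotype only, though not within replicate 1, where the IFIT median was lower. They encode nuclear and cytosolic DNA-binding proteins induced by both interferon types, and all 3 analysed had a log2 fold change below 0, with a median of -1.21 (-1.26 with the batch term). The median was -0.34 within replicate 1 and -1.67 in replicates 2 and 3 alone, and it was -0.42 under the offsets (-0.40 with the batch term), so the size of the difference depended on both. Ifi204 stood at 34.1, 19.9 and 18.6 CPM in knockout, against 53.0, 44.0 and 76.1 CPM in wild type. Every knockout library lay below every wild-type library. Ifi204 had a log2 fold change of -1.25 (SE 0.35; adjusted p = 0.399, edgeR), and -1.31 (SE 0.31; adjusted p = 0.102) with the batch term. It was -0.63 within replicate 1, -1.67 in replicates 2 and 3 and -0.76 under the offsets. Since 30.2% of its windows also occur in other genes, mostly Ifi211 and Mndal, its count is uncertain.

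Ifi205 stood at 28.3, 25.2 and 20.7 CPM in knockout and 34.6, 32.6 and 104.3 CPM in wild type. Its groups did not overlap, and wild-type replicate 3 was far above the rest. The log2 fold change was -1.21 (SE 0.48; adjusted p = 0.555, edgeR), and it was -0.45 without wild-type replicate 3. Within replicate 1 it was -0.29, in replicates 2 and 3 it was -1.60, and under the offsets it was -0.42. Ifi203 stood at 45.4, 7.97 and 11.3 CPM in knockout and 57.7, 16.9 and 46.5 CPM in wild type, with a log2 fold change of -0.90 (SE 0.72), and of -0.30 under the offsets. Its libraries overlapped, and replicate 1 was the highest library of each genotype.

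The guanylate-binding proteins are large GTPases that coat pathogens and their vacuoles, and their genes are typical targets of interferon gamma. Of 11, 6 had a log2 fold change above 0, with a median of 0.23 (-0.16 with the batch term), and 0 were called. Their mean log2 CPM was 4.26, 1.74 and 3.04 in knockout replicates 1 to 3 and 3.62, 2.89 and 3.55 in wild type, so knockout replicates 1 and 2 bracketed wild type. Within replicate 1 the family's median log2 ratio was 0.45, and in replicates 2 and 3 alone its median log2 fold change was -0.89. The direction of this family thus rested on replicate 1.

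Gbp11 shows the pattern in full. It stood at 39.0, 2.32 and 5.0 CPM in knockout and 4.62, 4.67 and 3.76 CPM in wild type, so knockout replicate 1 alone was high. The log2 fold change was 1.83 (SE 0.94; adjusted p = 0.589, edgeR), and 0.83 (SE 0.71; adjusted p = 0.452, edgeR) with the batch term. With genotype only it was -0.25 without knockout replicate 1. Gbp6 stood at 59.8, 6.11 and 9.25 CPM in knockout and 24.8, 9.97 and 18.1 CPM in wild type, and Gbp10 at 8.01, 0.228 and 3.81 CPM in knockout and 1.73, 1.75 and 1.71 CPM in wild type. These genes share 59.7% and 82.5% of their windows with other genes, so their counts are uncertain.

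Gbp2, the family member with the highest level per length, did not follow that pattern. It stood at 92.7, 80.2 and 124.5 CPM in knockout and 63.5, 77.7 and 78.0 CPM in wild type. The groups did not overlap, though knockout replicate 2 was only just above wild-type replicate 3. The log2 fold change was 0.44 (SE 0.27; adjusted p = 0.605, edgeR).

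The immunity-related GTPases act against vacuoles of intracellular parasites beside the guanylate-binding proteins. Of 6 genes, 3 had a log2 fold change above 0, with a median of 0.02, and 0 were called. The median was 0.16 within replicate 1 and -0.02 in replicates 2 and 3, and under the offsets all 6 lay above 0 with a median of 0.34. Igtp stood at 21.6, 21.0 and 50.6 CPM in knockout and 17.5, 22.7 and 15.6 CPM in wild type (log2 fold change 0.74, SE 0.40; adjusted p = 0.593, edgeR). Ifi47 stood at 13, 13.3 and 30.5 CPM in knockout and 12.3, 15.6 and 12.4 CPM in wild type (0.49, SE 0.40). Knockout replicate 3 was the high library for both, and the other knockout libraries lay within the wild-type range. Irgm2 and Tgtp1, which hold a GAS and an ISRE match at the same spacing as Igtp, had log2 fold changes of 0.17 (SE 0.27) and -0.15 (SE 0.48).

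Ifi30 encodes the lysosomal thiol reductase that opens disulfide bonds of antigens and is induced by interferon gamma. It stood at 45.3, 56.2 and 84 CPM in knockout and 23.4, 46.3 and 32.9 CPM in wild type. Knockout replicates 2 and 3 lay above all wild-type libraries, and knockout replicate 1 lay just below wild-type replicate 2. Ifi30 had a log2 fold change of 0.85 (SE 0.36; adjusted p = 0.572, edgeR), and 0.87 (SE 0.24; adjusted p = 0.125) with the batch term. Ifi35, a partner of other interferon-induced proteins, overlapped between genotypes (0.43, SE 0.42).

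The promoter letters did not go with a direction. The 27 members with ISRE letters had 13 log2 fold changes above 0 and a median of -0.03, and the 22 matched members without them had 13 above 0 and a median of 0.13. The 15 with GAS letters had 9 above 0 and a median of 0.17, and the 34 without had 17 above 0 and a median of 0.02.

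Exonic length moved with the fold changes of the members as it did over all genes. Pearson's r between log2 exonic length and log2 fold change was -0.231 over the 68 members, -0.47 over type I targets and -0.317 over type II targets, beside -0.238 over all 14291 genes. These are correlations across genes of the same 6 libraries, and genes are not independent replicates. Members under 2000 exonic bases had a median log2 fold change of 0.21, with 13 of 19 above 0, and those of 2000 bases or more had one of -0.09, with 23 of 49 above 0. The same medians over all genes were 0.23 and -0.12.

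With the loess offsets for exonic length and GC, the correlation over members was 0.0993. The median of type I targets was then -0.06 and that of type II targets 0.36, with 14 of 31 and 16 of 20 members above 0 (51.3% of all genes). Ifi27l2a, at 883 bases among the shorter members, kept a log2 fold change of 1.93, and of 1.99 with the batch term (adjusted p = 0.00961, edgeR). In that last fit 1 member was called higher, where 1.38% of all genes were, and 3 members were called lower, where 0.952% of all genes were: Ifi204 at -0.76 (adjusted p = 0.0445), Ifi27 at -0.77 (adjusted p = 0.0382) and Isg20, an exonuclease that degrades viral RNA, at -0.75 (adjusted p = 0.0495), all by edgeR with Benjamini-Hochberg adjustment. The OAS family stayed above 0 with 6 of 8 members, and the IFITM family had 1 of 6 above 0 under the offsets, against 4 without. Whether length or GC content accounts for any of these differences was not tested.

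**Figure D5:**
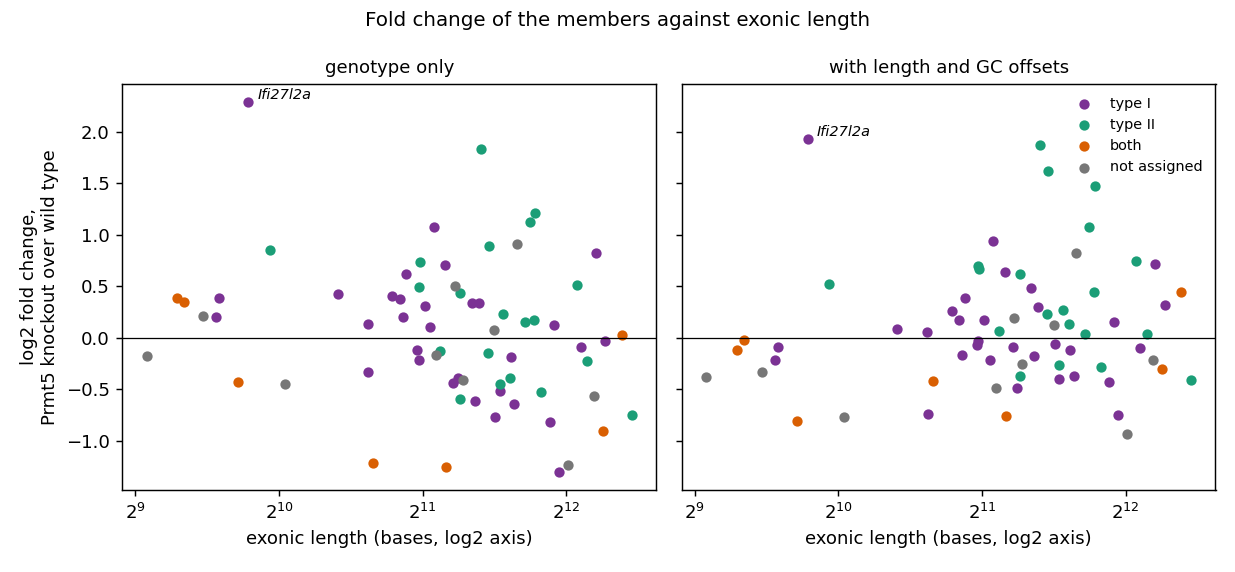
Log2 fold change of the 68 members, knockout over wild type, against exonic length on a log2 axis, with genotype only on the left and with length and GC offsets on the right. Colours give the interferon class. Shorter members lie higher on the left (r = -0.231) and the slope is near flat on the right (r = 0.0993), with Ifi27l2a at the top left of both.

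The rest of the pathway was read from a list of receptors, kinases, sensors, negative regulators and further targets. Of the interferon ligand genes searched for, 0 were among the 14291 genes analysed. With genotype only, 0 genes of these lists were called by edgeR, and at an unadjusted p under 0.05 there were 6 higher and 2 lower of 62, beside 5.26% and 3.37% of all genes. With the batch term these counts were 8 and 4, beside 12.1% and 12.4% of all genes. Of the 6 receptor genes, 4 had a log2 fold change above 0. Ifngr1, the ligand-binding chain of the interferon gamma receptor, stood at 130.6, 111.2 and 145.1 CPM in knockout, against 195.2, 205.1 and 199.3 CPM in wild type. The groups lay well apart, with a log2 fold change of -0.63 (SE 0.24; adjusted p = 0.538, edgeR) and an adjusted p of 0.139 with the batch term. Ifnar2, a chain of the type I receptor, stood at 111.5, 134.1 and 111.6 CPM in knockout and 82.9, 98.8 and 85.6 CPM in wild type. These groups did not overlap either, and its log2 fold change was 0.42 (SE 0.24; adjusted p = 0.602, edgeR).

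Of the 3 kinase genes 1 lay above 0. Tyk2 had a log2 fold change of 0.36 (SE 0.26) and Jak2 one of -0.58 (SE 0.48). Of 13 sensors and adaptors, 8 lay above 0, among them Ikbke, a kinase that activates Irf3, at 0.78 (SE 0.32), while Tlr7, a receptor for single-stranded RNA, had -0.59 (SE 0.37). Of 5 negative regulators, 2 lay above 0, namely Socs1 at 0.57 (SE 0.52) and the phosphatase gene Ptpn6 at 0.41 (SE 0.36). The adjusted p of these 6 genes lay above 0.05 in both edgeR fits.

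Of 35 further targets, 22 lay above 0, and Cxcl9 was called with the batch term. With genotype only, 5 had an unadjusted p under 0.05 and were higher (5.26% of all genes): Cxcl9, Cxcl10, Tap1, Psmb10 and Ciita. Nampt was the 1 that was lower (3.37% of all genes). With the batch term these counts were 7 and 3 (12.1% and 12.4% of all genes). Cxcl9 encodes a chemokine that draws T cells and is induced by interferon gamma. It stood at 118.2, 134.7 and 177.4 CPM in knockout, against 30.3, 56.0 and 44.1 CPM in wild type. The groups lay far apart, with a log2 fold change of 1.75 (SE 0.22; adjusted p = 0.0267, edgeR) with the batch term and 1.72 (SE 0.32; adjusted p = 0.264) with genotype only. The call was lost when knockout replicate 1 (adjusted p = 0.0751), knockout replicate 2 (0.202), knockout replicate 3 (0.133) or wild-type replicate 1 (0.0649) was left out of the batch-term edgeR fit, while the log2 fold change stayed between 1.62 and 1.88. Cxcl10, a chemokine of both interferon types, stood at 8.65, 5.56 and 7.12 CPM in knockout and 2.62, 3.70 and 2.08 CPM in wild type. Its groups did not overlap, and its log2 fold change was 1.34 (SE 0.39; adjusted p = 0.418, edgeR).

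Markers of immune cells were read beside these targets, and they did not go one way. All 12 analysed markers of T and natural killer cells had a log2 fold change above 0 (49% of all genes), with a median of 1.58. Of these 12, 8 had an unadjusted p under 0.05 and were higher (5.26% of all genes), 0 were called by edgeR in either fit, and 0 were at 0 counts in any library. Their summed level was 50.2, 52.4 and 146.6 CPM in knockout, against 19.3, 35 and 28.1 CPM in wild type, without overlap. Knockout replicate 3 was the highest library for these markers. The mean log2 CPM of type II targets was highest in knockout replicate 1 (4.49, against 3.97 in knockout replicate 3). Among them the guanylate-binding proteins were highest in knockout replicate 1 (4.26, against 3.04 in knockout replicate 3). The immunity-related GTPases were highest in knockout replicate 3 (4.48, against 4.35 in knockout replicate 1), and so were Irf1, Irf8 and Ifi30. Of 12 macrophage markers, 8 lay above 0, with summed levels of 2254, 2760 and 3829 CPM in knockout and 1644, 2987 and 2478 CPM in wild type. Of 5 B cell markers 2 lay above 0, with a median of -0.23, and of 4 plasmacytoid dendritic cell markers 1, with a median of -0.65. Of 6 conventional dendritic cell markers 3 lay above 0. Of the macrophage markers only Cd163, a scavenger receptor of resident macrophages, was called with the batch term. Cd163 was lower (log2 fold change -1.47; adjusted p = 0.0321, edgeR), and with genotype only it did not pass (-1.45; adjusted p = 0.349, edgeR). Cd68, another macrophage marker, lay above wild type in every knockout library (0.98; adjusted p = 0.502, edgeR, genotype only). The part of these cells in the interferon results was not tested.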

How the data were processed

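PolyA RNA was extracted with Trizol and sequenced on an Illumina HiSeq, per the labels' protocols. Tools named in the submitters' processing notes are HTSeq 0.6.1 and TopHat2, on mm10, without their roles or a strand setting. The authors deposited raw counts per gene for 6 libraries, which were the values tested. Per the file headers the table also holds log2 RPKM values and log2 fold changes, and p-values of the authors, raw and adjusted, and these were used only to learn the batch grouping. With replicate 1 set against replicates 2 and 3, the batch-term fit matched the deposited p-values (median absolute log10 ratio 8.3e-14, against 0.184 with genotype only). Neither the labels nor the headers say what this grouping was.

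Counts were fitted with edgeR 4.0.16 in R 4.3.3 (TMM scaling, filterByExpr, glmQLFit with legacy=TRUE, glmQLFTest), with genotype as the only term in the main fit. P-values were adjusted by Benjamini-Hochberg over all 14291 genes, with calls made under 0.05. Genotype only gave a biological coefficient of variation of 0.435, and the batch term gave 0.32. CPM are TMM-scaled, and levels per length are CPM per kilobase of exonic length. The fits were also run on simulated counts with less spread than these libraries, so that run does not show how they perform here. Total counts from 17489530 to 26403882 leave genes near 1 CPM the least precise.

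The members, the classes and the lists were chosen with earlier results of these data known. Genes named were Prmt5, Stat2, Irf1, Irf7 and Irf9, in each family the 2 with the smallest p and the 1 with the highest level per length, called members, and in each pathway role the 2 with the smallest p. Values of 2 members are not reported here by name. Genes named beyond this rule were chosen after their values were seen. Alternatives were RLE scaling, a strict filter (10 counts) or none, DESeq2 1.42.0, limma-voom (limma 3.58.1), the batch term, a replicate block, replicates 2 and 3 alone, each library left out, and loess offsets (span 0.5) for exonic length and GC content, known for 13786 genes (96.5%) from GENCODE M21. edgeR's newer quasi-likelihood method and type I targets without Ifi27l2a were added after seeing the data. Promoter windows came from RefSeq (GRCm38.p6). The 50-base windows were read from the longest GENCODE M21 transcript of each gene. No 2 libraries of the same genotype agreed within sampling noise, and pairs across genotypes were not checked.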

Additional observations from a re-analysis of the deposited data

How the results depend on the processing

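The count of all genes called was 0 with genotype only, with no filter, a strict filter and limma-voom. It was 1 with RLE size factors, 2 with the newer edgeR method, 3 at an adjusted p under 0.1, 14 with length and GC offsets, 50 in replicates 2 and 3 alone, 72 with the batch term, 118 with the newer method and batch term, 271 with DESeq2 and 333 with offsets and batch term. Leaving out each library gave 0 to 42, the highest without knockout replicate 1, and 0 to 205 with the batch term (29, 125 and 205 without wild-type replicates 1 to 3, and 21, 0 and 21 without knockout replicates 1 to 3). The count of members called was 0 with genotype only and 1, Ifi27l2a, with the batch term, DESeq2, replicates 2 and 3 alone and the newer method with batch term. It was 4 with offsets and batch term, 0 with each library left out, and 0 to 1 with each left out beside the batch term. The median of type I targets was 0.13, and -0.07 with offsets and batch term. Leaving out each library gave -0.04 to 0.23, and -0.08 to 0.29 with the batch term. The median of type II targets was 0.20 and stayed within its spread, at -0.24 to 0.45 with each library left out and -0.20 to 0.31 with the batch term.

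Neither the labels nor the correlations over all 3 numbers pair the libraries by number: deviations from the genotype mean correlated at 0.638 for replicate 1, the number that the grouping behind the authors' p-values sets apart, 0.533 for replicate 2 and -0.102 for replicate 3, and knockout replicate 3 was closest to wild-type replicate 2 (0.44). A replicate block called 57 genes and 1 member (Ifi27l2a, adjusted p = 0.018), and 108 genes and 1 member with the offsets. The block moved the medians of type I and type II targets to 0.09 and -0.05.

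Some named genes turned sign. With offsets alone, with the batch term and with the block, Bst2 had a log2 fold change of -0.09, -0.09 and -0.10, Ifitm2 of -0.12 in each, Irf7 of -0.17, -0.20 and -0.26, and Tlr7 of 0.04, 0.02 and 0.02. In replicates 2 and 3 alone Gbp11 had -0.23 and Ifit3 0.06. Leaving out each library spanned -0.04 to 0.77 for Bst2, -0.25 to 2.34 for Gbp11, -0.03 to 0.70 for Ifi47, -0.39 to 0.02 for Ifit3, -0.06 to 1.41 for Ifitm10, -0.03 to 0.36 for Irf1, -0.51 to 0.58 for Irf7 and -0.37 to 0.09 for Stat2. With the batch term it spanned -0.23 to 1.54 for Gbp11 (-0.21 without wild-type replicate 1), -0.01 to 0.69 for Ifi47, -0.40 to 0.09 for Ifit3, -0.01 to 1.79 for Ifitm10, -0.01 to 0.35 for Irf1, -0.39 to 0.35 for Irf7 and -0.32 to 0.0024 for Stat2, with -0.0064 for Irf1 and -0.16 for Irf7 without wild-type replicate 3. For single genes 867 values kept their direction and side of the threshold, 24 passed it only under the alternative and 34 turned sign, and the cause was not tested. Where an arm keeps 1 library beside the batch term, the spread of that library is taken from the others. With 3 libraries a genotype, a miss of the threshold does not show that levels are equal.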
